A study of Mus musculus with 9 samples.

Results

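High mobility group (HMG) proteins are small, abundant proteins that bind DNA and nucleosomes without much sequence preference, and this section describes the RNA of 9 mouse genes for them, Hmgb1, Hmgb2, Hmgb3, Hmga1, Hmga2, Hmgn1, Hmgn2, Hmgn3 and Hmgn5. They were chosen by symbol, and all 9 were found among the 23360 genes listed for each library. RNA was measured in tumours of the cerebellum (medulloblastoma) and in normal cerebellum. A1G tumours came from mice with Math1-cre, the A1G allele and the Ptch1+/- genotype, and Ptch1 tumours from Ptch1+/- mice, so that the tumour kinds share the loss of 1 copy of the Hedgehog receptor gene Ptch1. Math1-cre is active in cells that use the regulatory sequence of Atoh1, chiefly granule neuron progenitors, and the series describes the A1G tumours as driven by ATOH1 together with Hedgehog signalling. Cerebellum came from wild type adult mice of the C57BL/6 strain, while tumour mice were of mixed strain with an age not given in the sources used here. Tissue, strain and genotype therefore cannot be told apart, and neither can age, which may differ. Each group had 3 libraries. The labels do not say whether these came from separate animals, so p-values measure only the spread between libraries.

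HMG proteins fall into 3 families. HMGB proteins carry HMG boxes that bend DNA, HMGA proteins bind AT-rich DNA through short AT-hooks, and HMGN proteins bind inside the nucleosome and compete with linker histone H1. HMGB and HMGA proteins are known for high levels in dividing and embryonic cells, while Hmgn3 is known to be expressed in the adult brain. HMGB1 is also released from damaged cells, where it acts as an alarm signal.

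Between 2350941 and 9290237 fragments were assigned per library, and 14337 of the listed genes passed the expression filter. Levels below are normalised counts-per-million (CPM) on a scale shared by all 9 libraries. Changes are on the log2 scale with a standard error (SE). Adjusted p-values are from edgeR (quasi-likelihood F test, Benjamini-Hochberg over every tested gene), and a change was called at 0.05. Most markers of granule cell stages differed between the labelled tissues. Atoh1, the granule progenitor factor, averaged 443 CPM in A1G and 336 in Ptch1 tumours but 8.78 in cerebellum, and Gabra6 of mature granule neurons averaged 19.2, 5.03 and 569 CPM in that order. Of 5 granule progenitor markers, 4 rose against cerebellum in either tumour kind, where 16.3% (A1G) and 20.2% (Ptch1) of tested genes rose. The other, Zic1, averaged 1186 (A1G), 1539 (Ptch1) and 1206 CPM (cerebellum) and was not called (edgeR adjusted p = 0.961 and 0.405). As ATOH1 is described as a driver of A1G tumours, its RNA there is no independent marker of cell type. In bulk tissue such as this, fewer cells of a type and less RNA per cell cannot be told apart. Of the members, 7 reached an FPKM of 1 (fragments per kilobase and per-million) in all 9 libraries, Hmga1 did so in 8, and Hmga2 in 0, which left 8 tested members.

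Against cerebellum, 6 of the 8 tested members rose in A1G tumours and the same 6 rose in Ptch1 tumours: Hmgb1, Hmgb2, Hmgb3, Hmgn1, Hmgn2 and Hmgn5. Of all tested genes, 16.3% rose in A1G tumours and 20.2% in Ptch1 tumours (32.4% and 40.0% changed in either direction). For the mean of the tumour groups the count was again 6, where 20.7% of tested genes rose and 42.1% changed. No member fell. The median log2 change of the 8 tested members was 2.23 in A1G and 3.04 in Ptch1 tumours, against 0.03 and 0.00 over all tested genes. The tumour kinds were compared with the same cerebellum libraries, so these counts are not independent. In all 6 genes the 6 tumour libraries lay above the 3 cerebellum libraries, which held in the same direction for 18.5% of tested genes (22.5% for A1G and 27.2% for Ptch1 libraries alone). For Hmgb1 this rests on 58.456 CPM in A1G replicate 2 against 58.408 CPM in cerebellum replicate 1, so its separation is marginal. The exact two-sided permutation test of each of the 6 gave p = 0.0119, the smallest that 6 against 3 libraries allow.

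**Figure D1:**
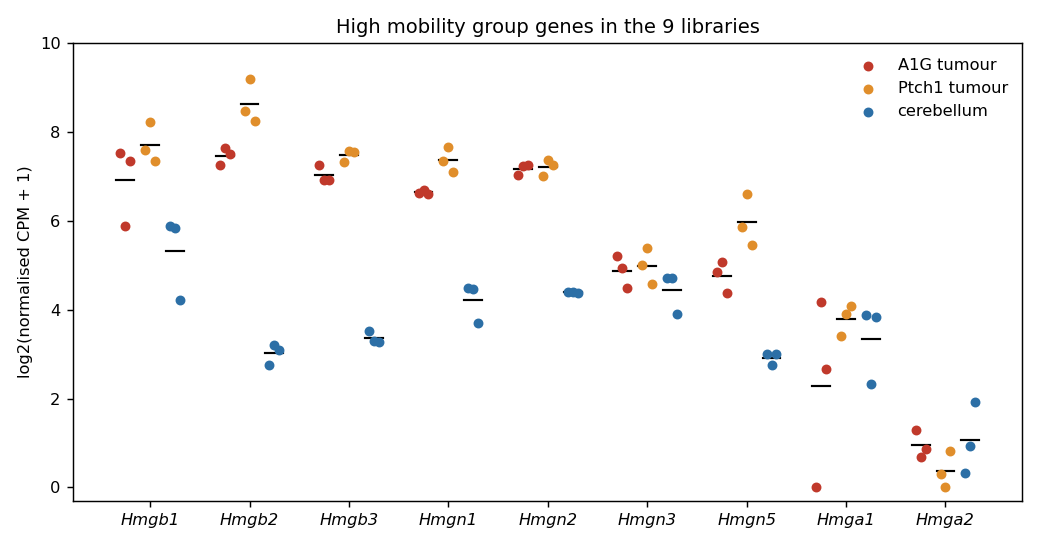
Levels of the 9 members as log2(normalised CPM + 1) in each library (points) with the group mean (bars), for A1G tumours, Ptch1 tumours and cerebellum. Hmgb2 has the widest gap between tumours (152 to 591 CPM) and cerebellum (5.76 to 8.19 CPM), while Hmgn3, Hmga1 and Hmga2 overlap between the groups.

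Hmgb2, an HMG-box protein abundant in dividing cells (chromosome 8, 57511907 to 57515999, mm10), changed most among the members. It stood at 152, 199 and 180.5 CPM in the A1G libraries, at 355, 591 and 304 CPM in the Ptch1 libraries, and at 5.76, 8.19 and 7.57 CPM in cerebellum. Every tumour library was far above every cerebellum library, and the Ptch1 libraries lay above the A1G ones. The log2 change against cerebellum was 4.62 (SE 0.35, adjusted p = 2.52e-06) in A1G and 5.86 (SE 0.36, adjusted p = 4.56e-07) in Ptch1 tumours.

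Hmgb3, an HMG-box protein known from stem and progenitor cells (chromosome X, 71555918 to 71560676), had 154, 120.02 and 121 CPM (A1G), 159, 189 and 187 CPM (Ptch1) and 10.5, 8.79 and 8.76 CPM (cerebellum). Its libraries varied little within each group. The change was 3.81 (SE 0.27, adjusted p = 1.57e-06) in A1G and 4.25 (SE 0.27, adjusted p = 5.42e-07) in Ptch1 tumours.

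Hmgb1, the most studied family member and the one released as an alarm signal (chromosome 5, 149046702 to 149184489), rose less and varied more. It stood at 184, 58.5 and 162 CPM (A1G), 192, 297 and 163 CPM (Ptch1) and 58.4, 56.4 and 17.5 CPM (cerebellum). A1G replicate 2 sat at the level of cerebellum replicates 1 and 2, and cerebellum replicate 3 was lowest. The change was 2.31 (SE 0.50, adjusted p = 0.00320) in Ptch1 tumours. In A1G tumours it was 1.62 (SE 0.50, adjusted p = 0.0255), and this call was lost without A1G replicate 1 (adjusted p = 0.0886), A1G replicate 3 (0.0725) or cerebellum replicate 3 (0.0614). The summed level of the 15 proliferation genes was also lowest in A1G replicate 2, at 1967 CPM against 6618 and 4856 CPM in the other A1G libraries. Mki67, at 618 to 3462 CPM over the A1G libraries, weighs most in this sum, and not every gene of the list follows it. Hmgb2 was highest of the A1G libraries in replicate 2. The part of proliferation in the Hmgb1 level was not tested.

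The RefSeq promoter windows on GRCm38.p6 run from 250 bases before to 50 after the start site. They are shown for 4 of the genes that rose, which hold repeated CCAAT boxes. Hmgb1 also rose and held repeated CCAAT boxes in 1 of its windows, which is not shown. The first pair shown also holds the cell cycle homology element (CHR) known from promoters of mitotic genes. Capitals mark CCAAT and TTTGAA or TTCGAA on either strand.
Hmgb2 promoter, chr8:57511593-57511892, plus strand: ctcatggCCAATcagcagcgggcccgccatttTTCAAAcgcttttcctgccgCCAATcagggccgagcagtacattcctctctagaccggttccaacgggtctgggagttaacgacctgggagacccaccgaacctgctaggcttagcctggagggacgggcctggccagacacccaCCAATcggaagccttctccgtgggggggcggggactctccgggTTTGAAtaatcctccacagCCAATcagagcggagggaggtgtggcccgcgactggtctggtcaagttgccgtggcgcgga
Hmgb3 promoter, chrX:71555667-71555966, plus strand: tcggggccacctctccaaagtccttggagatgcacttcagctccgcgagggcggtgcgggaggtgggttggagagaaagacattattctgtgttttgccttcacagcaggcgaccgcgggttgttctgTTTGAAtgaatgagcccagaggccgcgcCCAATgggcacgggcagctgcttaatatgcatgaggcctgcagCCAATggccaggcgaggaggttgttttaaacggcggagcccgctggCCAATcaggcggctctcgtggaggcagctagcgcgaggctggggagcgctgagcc
Hmgn1 promoter, chr16:96127676-96127975, minus strand: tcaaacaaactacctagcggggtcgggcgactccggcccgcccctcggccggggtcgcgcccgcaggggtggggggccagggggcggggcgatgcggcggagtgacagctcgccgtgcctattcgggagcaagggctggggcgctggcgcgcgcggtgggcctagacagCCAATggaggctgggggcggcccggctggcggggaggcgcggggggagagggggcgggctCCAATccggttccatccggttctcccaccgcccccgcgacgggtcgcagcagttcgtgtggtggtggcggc
Hmgn5 promoter, chrX:109013331-109013630, minus strand: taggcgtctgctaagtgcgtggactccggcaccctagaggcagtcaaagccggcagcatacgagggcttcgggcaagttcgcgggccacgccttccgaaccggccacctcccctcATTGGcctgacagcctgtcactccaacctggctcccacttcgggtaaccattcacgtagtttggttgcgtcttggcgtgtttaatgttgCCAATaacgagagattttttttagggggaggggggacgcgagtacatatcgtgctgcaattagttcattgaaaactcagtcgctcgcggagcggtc
The Hmgb2 window held 4 CCAAT boxes and 2 CHR matches, one of each kind lying 11 and 30 bases before the start site. The Hmgb3 window held 3 CCAAT boxes and 1 CHR match, and Hmgn1 and Hmgn5 held 2 CCAAT boxes each. Windows were present for 8 members. Hmgb1 had 3 CCAAT boxes in 1 of its windows and 0 in the other, Hmgn2 had 1, and Hmga1 and Hmga2 had 0. Of 32851 windows of the same length, 37.4% held CCAAT at least once, 3.37% held it 3 or more times, and 19.2% held a CHR match. Of all windows 11.7% held 2 or more CCAAT boxes, as did 13.7% of windows of tested genes, 15.6% of those of genes higher in tumours and 11.5% of those of genes lower in tumours. A CHR match was in 13.5% of windows of tested genes, 17.8% of the higher and 10.9% of the lower ones. The combination of a CHR match with 3 or more CCAAT boxes was chosen after the Hmgb2 and Hmgb3 windows were seen. It occurred in 0.639% of all windows, 0.799% of those of tested genes, 1.89% of the higher and 0.286% of the lower ones. The E2F words TTTCGCGC, TTTGGCGC, TTTCCCGC and TTTGCCGC, held by 2.26% of windows, occurred in 0 of the members' windows. These are matches of letters and not measured binding sites.

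Among the HMGN genes, Hmgn1 and Hmgn2, the ubiquitous nucleosome-binding proteins, both rose. Hmgn2 (chromosome 4, 133964738 to 133968650) stood at 131, 149 and 151 CPM (A1G), 128, 164 and 151 CPM (Ptch1) and 20.2, 20.02 and 19.9 CPM (cerebellum). The tumour kinds overlapped fully, and the change was 2.84 (SE 0.24, adjusted p = 6.62e-06) in A1G and 2.88 (SE 0.24, adjusted p = 3.84e-06) in Ptch1 tumours. Hmgn1 (chromosome 16, 96120618 to 96127729) stood at 98.4, 103 and 97.2 CPM (A1G), 161, 204 and 136 CPM (Ptch1) and 21.5, 21.2 and 11.9 CPM (cerebellum). Here the Ptch1 libraries all lay above the A1G libraries. The change was 2.45 (SE 0.30, adjusted p = 8.23e-05) in A1G and 3.20 (SE 0.30, adjusted p = 9.11e-06) in Ptch1 tumours.

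Hmgn5, a larger HMGN protein with a long acidic tail (chromosome X, 109004534 to 109013404), stood at 27.9, 32.6 and 19.7 CPM (A1G), 56.9, 96.9 and 42.8 CPM (Ptch1) and 7.07, 5.76 and 6.97 CPM (cerebellum). The 3 groups did not overlap. The change was 2.01 (SE 0.38, adjusted p = 0.00160) in A1G and 3.31 (SE 0.38, adjusted p = 4.1e-05) in Ptch1 tumours.

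Hmgn3 was the HMGN gene that did not pass the test in any comparison (chromosome 9, 83109948 to 83146685). Its levels were 36.4, 29.9 and 21.3 CPM (A1G), 31.1, 40.8 and 22.9 CPM (Ptch1) and 25.1, 25.2 and 13.9 CPM (cerebellum), and all groups overlapped. The log2 difference from cerebellum was 0.45 (SE 0.36, adjusted p = 0.370) for A1G and 0.57 (SE 0.36, adjusted p = 0.224) for Ptch1 tumours. The longest Hmgn3 transcript shared 0 of its 50-base words with another annotated gene.

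**Figure D2:**
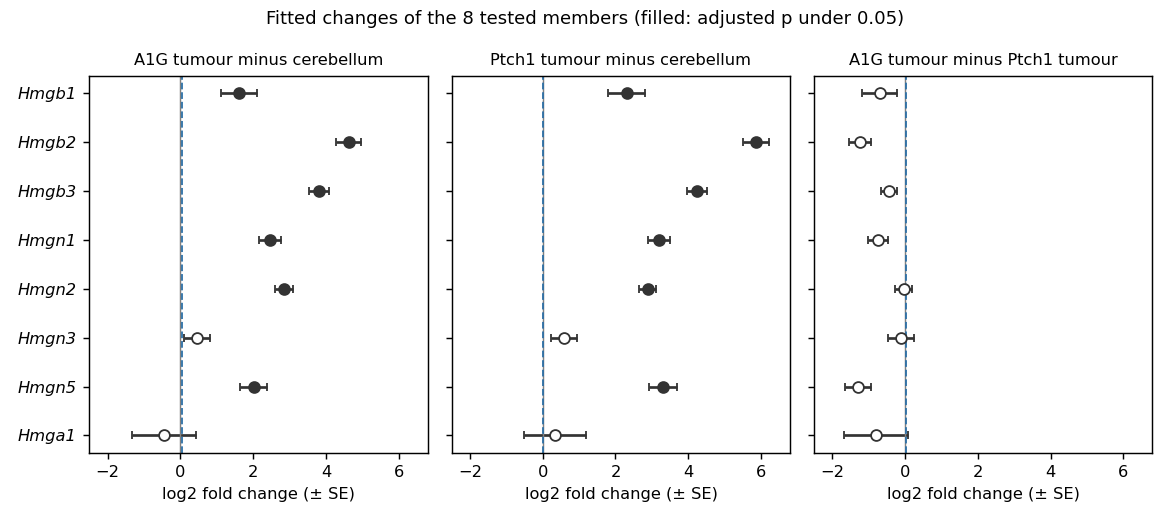
Fitted log2 fold changes (points) with SE (bars) of the 8 tested members in each comparison, filled where the adjusted p is under 0.05, with the median of all tested genes as a dashed line. In the panels against cerebellum 6 members are filled and lie at 1.62 or more, and in the panel between tumour kinds 0 are filled and all 8 lie below 0.

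Of the HMGA genes only Hmga1 was tested, and it did not pass. Hmga1, an AT-hook protein linked to proliferating and embryonic cells (chromosome 17, 27556497 to 27563674), stood at 0.000728, 17.04 and 5.39 CPM (A1G), 9.68, 13.9 and 16.1 CPM (Ptch1) and 13.8, 4.05 and 13.3 CPM (cerebellum). A1G replicate 1 was near 0, and all groups overlapped. Its fragments were not whole numbers in any of the 9 libraries, while those of the other 8 members were whole in every library, so its level is an estimate and uncertain. Against cerebellum the log2 difference was -0.46 (SE 0.88, adjusted p = 0.724) in A1G and 0.33 (SE 0.85, adjusted p = 0.788) in Ptch1 tumours. Without A1G replicate 1 the former was 0.12, and without cerebellum replicate 2 the latter was -0.06.

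Hmga2, an AT-hook protein of embryonic tissue that is repressed by let-7 microRNAs (chromosome 10, 120361275 to 120476469), was at the edge of detection. Its libraries held 4, 2 and 2 fragments in A1G tumours, 1, 0 and 2 in Ptch1 tumours, and 1, 3 and 14 in cerebellum. The 0 in Ptch1 replicate 2, the deepest library, allows a level of up to 0.336 CPM (a floor of 3 fragments, counting error only). At this depth a difference between groups was not detectable, and the level of 2.79 CPM in cerebellum replicate 3 was the highest of the 9 libraries. The copy Hmga2-ps1 held the same 1, 3 and 14 fragments in cerebellum. In tumours it differed from Hmga2, with 11, 11 and 3 fragments in A1G and 1, 17 and 9 in Ptch1 tumours. The summed level of Hmga2 and Hmga2-ps1 averaged 3.87 (A1G), 2.19 (Ptch1) and 2.64 CPM (cerebellum), and the groups overlapped. Whether the same reads were counted for both genes is not known.

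Per unit length, the order of the genes differed between tissues. Levels between genes are compared by deposited FPKM within a group only. Among members other than Hmga1, the 50-base words shared with other genes ran from 0% (Hmgn3) to 67.1% (Hmgn2) of the transcript. The effect of this on the order and on the shares below was not tested. In cerebellum Hmgn3 led with 30.3 ± 8.6 FPKM (SD, n = 3), followed by Hmgb1 (20.3 ± 10.6), Hmgn2 (18.5 ± 0.258) and Hmgn1 (17.7 ± 5.21), which overlapped each with its neighbour. Hmgb2 stood second to last there, at 2.79 ± 0.470 FPKM, above Hmga2. In A1G tumours the order began with Hmgn2 (138 ± 11.3), Hmgn1 (100.5 ± 4.8) and Hmgb3 (91.0 ± 13.1), of which Hmgn1 and Hmgb3 overlapped. In Ptch1 tumours it began with Hmgn1 (166 ± 30.7), Hmgb2 (165 ± 57.4) and Hmgn2 (139 ± 15.8), which overlapped each with its neighbour. As a share of the summed FPKM of the 9 members, which does not depend on the scaling of a library, Hmgb2 made up 1.84% to 3.74% in cerebellum and 11.2% to 23.9% in tumours. Hmgn3 made up 25.7% to 31.1% in cerebellum and 4.91% to 9.84% in tumours. A share depends on the other members, and the Hmgn3 level itself was not lower in tumours, at a mean of 29.2 (A1G) and 31.6 CPM (Ptch1) against 21.4 CPM (cerebellum). Hmgn1 made up 14.7% to 17.8% in cerebellum and 18.01% to 22.7% in tumours.

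**Figure D3:**
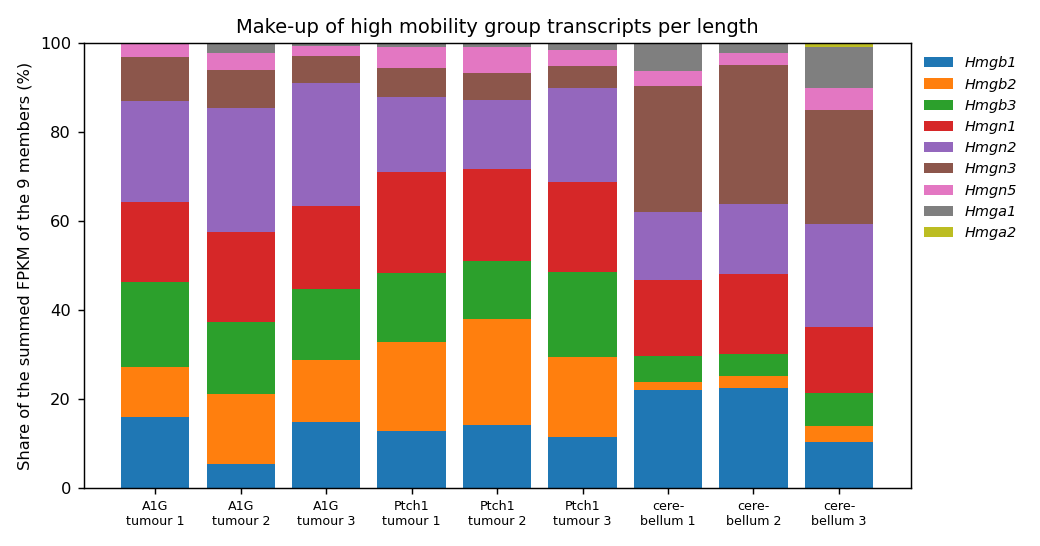
Share of each member in the summed deposited FPKM of the 9 members (stacked bars, percent) in each library. Hmgb2 widens from at most 3.74% in cerebellum to at least 11.2% in tumours, while the Hmgn3 share narrows from at least 25.7% to at most 9.84% without a lower mean level in tumours.

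Between the tumour kinds, 0 of 8 tested members passed edgeR's test, where 0.0139% of all tested genes did. All 8 had a lower fitted level in A1G tumours, as did 6936 of all 14337 tested genes. The members' median was -0.72, against 0.02 over all tested genes. The members were read in the same libraries, so their signs are not independent. At an unadjusted p under 0.05 edgeR counted 3, Hmgb2, Hmgn1 and Hmgn5, where 10.6% of tested genes reached that level and 4.98% did so with a lower level in A1G tumours. Their log2 differences were -1.24 (SE 0.29, adjusted p = 0.269), -0.75 (SE 0.28, adjusted p = 0.385) and -1.29 (SE 0.35, adjusted p = 0.292). DESeq2, which called 1.14% of genes, called Hmgb2 (-1.21, adjusted p = 0.0211), and limma on log2(FPKM + 1), which called 0.00697%, called 0 members. For Hmgb2 the adjusted p ranged from 0.0211 to 0.462 over 18 alternatives.

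In 4 of the 8 tested members, Hmgb2, Hmgb3, Hmgn1 and Hmgn5, the 3 A1G libraries lay below the 3 Ptch1 libraries, which held for 8.84% of tested genes. The exact permutation p of each was 0.1, the smallest that 3 against 3 libraries allow. Hmgn2 differed by -0.04 (SE 0.22) and Hmgn3 by -0.12 (SE 0.36), and either sign turned when single libraries were left out. The 15 proliferation genes had summed levels of 1967 to 6618 CPM in A1G and 6592 to 8343 CPM in Ptch1 tumours, and 14 had a lower fitted level in A1G tumours and 0 passed the test. The 5 Purkinje cell markers all had a higher fitted level in A1G tumours, and 1 passed the test. They summed to 314 to 631 CPM (A1G), 162 to 245 CPM (Ptch1) and 7521 to 9685 CPM (cerebellum). Fitted levels were also higher in A1G than in Ptch1 tumours for 5 of 5 oligodendrocyte, 4 of 5 mature granule neuron, 5 of 6 astrocyte, 5 of 6 microglia, 2 of 4 endothelial, 1 of 4 meningeal fibroblast and 2 of 2 erythrocyte markers, of which 0 passed the test.

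Against cerebellum, markers of 4 resident cell types fell in either tumour kind. All 5 Purkinje, all 5 mature granule neuron, all 5 oligodendrocyte and 5 of 6 astrocyte markers passed as lower. Of all tested genes, 16.1% (A1G) and 19.7% (Ptch1) did so. Other types differed less evenly. In either tumour kind 1 of 4 endothelial, 2 of 4 meningeal fibroblast and 1 of 2 erythrocyte markers passed as lower, and 2 of 6 microglia markers passed as higher. In Ptch1 tumours 1 microglia marker also passed as lower and 1 meningeal fibroblast marker as higher. Oligodendrocyte markers summed to 313 to 412 CPM (A1G), 62.96 to 377 CPM (Ptch1) and 6961 to 7492 CPM (cerebellum). Astrocyte markers summed to 623 to 726, 265 to 1074 and 2583 to 3700 CPM in the same order, and mature granule neuron markers to 339.7 to 638, 167 to 448 and 4484 to 5961 CPM. The part of these cell types and of the proliferation genes in the differences of the members was not tested.

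Other chromatin genes give the setting of these changes. Of 16 other genes with an HMG box, 13 were tested, and 7 rose in A1G and 8 in Ptch1 tumours against cerebellum, with 0 lower and medians of 0.86 and 1.16. Tox3, a transcription cofactor, had a mean of 0.520 CPM in cerebellum against 64.7 (A1G) and 92.8 CPM (Ptch1). Its cerebellum mean lay below the floor of 3 fragments (0.597 to 0.91 CPM in those libraries), so the size of the change is uncertain. Ssrp1, the HMG-box subunit of the histone chaperone FACT, went from 167 to 390.3 and 702 CPM. Pbrm1 and Smarce1, subunits of SWI/SNF remodelling complexes, went from 157 to 490.1 and 481 CPM and from 84.2 to 199 and 318 CPM.

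Linker histones, which occupy the nucleosome surface that HMGN proteins compete for, also rose. Of 7 genes, 6 rose in A1G and 7 in Ptch1 tumours, with medians of 3.22 and 3.78. The S-phase genes Hist1h1b and Hist1h1a went from 5.38 and 8.94 CPM in cerebellum to 388 and 509 CPM in A1G tumours. H1f0, the linker histone of resting cells, is named after its values were seen. It differed by 0.57 (adjusted p = 0.185) in A1G and rose by 1.01 (adjusted p = 0.0225) in Ptch1 tumours. Histone genes resemble each other and can share reads.

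Of 16 histone chaperones and subunits of the SET complex, which holds HMGB2 with SET and APE1, 11 rose in A1G and 13 in Ptch1 tumours, with medians of 1.70 and 2.10. Ssrp1 is counted here and among the HMG-box genes. Chaf1b, of the chromatin assembly factor that loads histones behind the replication fork, went from 0.356 CPM to 60.1 and 69.3 CPM. Asf1b, which hands histones H3 and H4 to that factor, went from 0.670 CPM to 19.1 and 20.1 CPM. The cerebellum means of Chaf1b and Asf1b lay below or at the floor of 3 fragments (0.597 to 0.91 CPM), so the size of either change is uncertain.

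**Figure D4:**
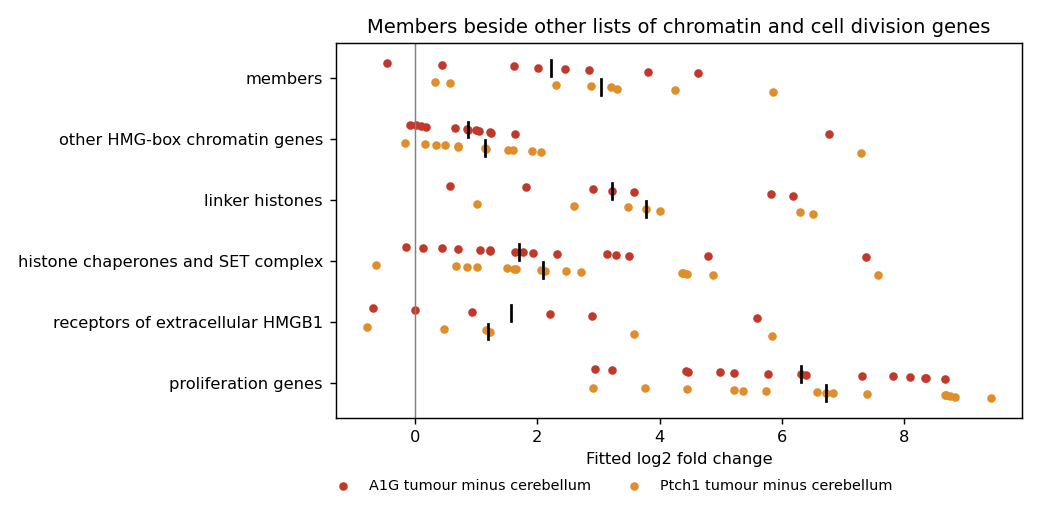
Fitted log2 fold changes of each tested gene (points) against cerebellum, for A1G and Ptch1 tumours, with the list median (black ticks). The members' medians of 2.23 and 3.04 lie between those of the other HMG-box genes (0.86 and 1.16) and the proliferation genes (6.32 and 6.72).

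All 15 proliferation genes rose in either tumour kind, with medians of 6.32 and 6.72 and summed levels of 44.3 to 61.2 CPM in cerebellum. Mki67, the antigen of dividing cells, went from 5.52 CPM to 2223 and 3754 CPM. Of 6 genes for receptors of extracellular HMGB1, 3 rose in A1G and 2 in Ptch1 tumours. Cd24a, a surface protein of immature neurons, went from 6.95 to 339.9 and 403 CPM. Tlr2, an innate immune receptor, went from 0.464 to 3.40 and 5.46 CPM (adjusted p = 0.0265 and 0.00612). Its cerebellum mean also lay below the floor of 3 fragments. Havcr2, named after its values were seen, was the other gene that rose in A1G tumours (adjusted p = 0.0478). Of 6 genes of the Lin28 and let-7 axis that controls Hmga2, 1 was tested. It was Igf2bp3, at 29.6, 19.5 and 18.0 CPM, and it did not pass (adjusted p = 0.181 and 0.842). Lin28b, which blocks let-7, averaged 0.608 (A1G), 0.149 (Ptch1) and 3.72 CPM (cerebellum) and was not tested.

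The genes most alike to each member other than Hmga1 were found by the root mean square (RMS) difference of their centred log2(CPM + 1) profiles over the 9 libraries, among 9978 genes with a mean of at least 10 CPM. The profiles share the same libraries and depth. Closest to Hmgb2 were Spc25 of the kinetochore (RMS 0.348) and the histone gene Hist1h2ag (0.353), where the median gene was at 2.44. Spc25 averaged 0.377 CPM in cerebellum, below the floor of 3 fragments (0.597 to 0.91 CPM in those libraries). There the added 1 in log2(CPM + 1) shapes its profile, so its closeness to Hmgb2 is uncertain. Nearest to Hmgb3 were Racgap1, which acts in cytokinesis (0.235), and Gsg1l (0.247). Hmgn1 was nearest to Stmn1, a tubulin-binding protein (0.199), and to Ezh2, the Polycomb methyltransferase (0.245), and Ezh2 also led for Hmgn5 (0.297), before Cald1 (0.306). Nearest to Hmgn2 were Tpm4 (0.212) and Hist1h4b (0.213), and nearest to Hmgb1 were Rpl36a (0.238) and the nuclear exporter Xpo1 (0.256). Hmgn3 was nearest to Harbi1 (0.115) and Zfp943 (0.165). For Hmga2 the nearest were Gga3 (0.200) and Wdfy3 (0.221), from too few fragments to read. Among the members themselves, Hmgn1 and Hmgn2 were the closest pair (0.378), followed by Hmgn1 and Hmgn5 (0.415).

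Copies and neighbours limit some of these counts. HMG genes have many processed copies in the genome, and 50-base words of the longest transcript recur in 130 other annotated genes for Hmgb1, 18 for Hmgn2, 14 for Hmgb3, 9 for Hmgb2, 5 for Hmgn1 and 1 for Hmgn5. The shared words were 36.8%, 67.1%, 34.2%, 21.9%, 6.54% and 18.6% of each transcript. Among the genes that share words, the files also list Gm5176 and Olfr571 for Hmgb1 and Tmx3 for Hmgb2, which were not added to the members. Of copies recognised by name, Hmgb1-rs17 held 0.524 to 7.06 CPM and Hmga2-ps1 0.228 to 4.04 CPM. Adding these to Hmgb1 and Hmga2 left the counts at 6, 6 and 0, though reads shared by Hmga2 and Hmga2-ps1 would then be counted more than once. Exons of Hmgb1, Hmga1, Hmga2 and Hmgn3 overlap other annotated genes on the opposite strand, those of Hmgb1 also Mm2pr on its own strand, and the values carry no statement of strand, so reads of the overlapping parts cannot be told apart.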

How the data were processed

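The labels' protocols describe 9 libraries of ribosome-depleted total RNA read on an Ion Proton, 3 per chip. Which libraries shared a chip is not known here, and a chip effect was not tested. Per the submitters' processing notes the build was mm10 and Bowtie 0.12.2 was used, in a role not stated. Per the file headers, the authors deposited raw fragments per gene (expected counts, rounded here), a signal of fragments times 1 factor per library, and FPKM. The deposited signal entered no test. Within groups, replicate pairs gave a chi-square of 11.6 to 46.9 per degree of freedom, above sampling noise.

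Genes reaching a deposited FPKM of 1 in 3 or more libraries were tested. All 9 libraries entered 1 model with a mean for each group (edgeR 4.0.16, TMM scaling, R 4.3.3). The SE is the log2 change divided by the square root of F. The code was tested on simulated data. DESeq2 1.42.0, limma 3.58.1, other scalings and filters, and leaving out each library were alternatives. Single members were tested by exact permutation of log2(CPM + 1). Annotation came from GENCODE M21 and promoters from RefSeq. The members and lists were chosen with earlier results of these data known. Named were the members, up to 4 genes per list with the largest changes past the threshold (where none passed, the 2 most abundant), and the 2 genes nearest to a member, plus genes marked as named after their values were seen. A result on an item related to the members is not reported here.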

Additional observations from a re-analysis of the deposited data

How the results depend on the processing

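The counts of members called against cerebellum stayed at 5 or 6 in A1G tumours and at 6 in Ptch1 tumours and in the mean of the tumour groups, under every alternative run and every library left out. Over these settings the share of all tested genes called ran from 23.5% to 36.1% (A1G), 29.4% to 43.4% (Ptch1) and 31.7% to 45.1% (mean). The count between the tumour kinds was 0 by edgeR as reported and when any library was left out, and 1 with DESeq2, which was Hmgb2, where the cause was not tested. Hmgb1 in A1G tumours was also not called by limma on log2(FPKM + 0.1) (adjusted p = 0.0582). No called value changed sign. Of 568 values of single members under alternatives, 552 kept direction and side of the threshold, 4 lost a call (all Hmgb1 in A1G tumours), 1 gained one (Hmgb2), and 11 uncalled values of Hmga1, Hmgn2 or Hmgn3 changed sign. With the replicate number as a block, the counts were 0 between tumour kinds and 6 in A1G tumours, 6 in Ptch1 tumours and 6 in their mean against cerebellum. Same-numbered libraries of different groups had correlations of their deviations from -0.0607 to 0.195, so the number is not a sign of pairing. The exact permutation test gave 6 members with either scaling and with a pseudocount of 0.1 (chosen after seeing the data). It also did so when any of the 9 libraries was left out. This follows from groups that do not overlap, narrowly so for Hmgb1, and is no sign of stability. Adding the copies Hmgb1-rs17 and Hmga2-ps1 to their members was also chosen after seeing the data. Depth limits Hmga2, which had 29 fragments in all.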
